A study of Mus musculus with 3 samples.

Results

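The genes described here are the keratins of the hair shaft and of the inner root sheath, the layer that moulds it, together with the keratin-associated protein (Krtap) genes. They were chosen by name from single-cell RNA-seq of whole mouse skin: every gene whose symbol begins with Krtap, plus a list of 20 keratins. In all, 52 of the 26989 genes in the 3 libraries were members, namely 7 inner root sheath keratins, 12 shaft keratins and 33 Krtap genes. 1 further keratin of the list is not analysed here. The 3 libraries were 1 each from C57BL/6 mice 9 weeks old: control (normal skin with saline), UV (UV irradiated, with saline) and UV plus VD (UV irradiated, with VD, an agent that the labels name only by these letters). All cells came from whole skin prepared with a Singleron GEXSCOPE kit. With 1 library per group there is no replicate check and no test: a difference between libraries is a difference between those libraries, and the intervals below are 95% intervals that cover counting error only. The labels do not record the growth phase of the hair follicles, so it cannot be told apart from the treatment.

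A growing follicle builds the hair from dividing matrix cells at its base. Cells in the centre become the shaft, with its medulla, cortex and cuticle, and cells around them become the inner root sheath, which guides the shaft and is later shed. Each keratin filament pairs a type I with a type II keratin: Krt25, Krt26, Krt27 and Krt28 are type I and Krt71, Krt72 and Krt73 are type II keratins of the sheath, while Krt31 to Krt36 are type I and Krt81 to Krt86 are type II hair keratins. Keratin-associated proteins fill the space between the filaments of the shaft. They are small proteins rich in cysteine, which forms disulfide bonds with the keratins, or in glycine and tyrosine. These genes are expressed in the growing follicle and fall silent when the follicle rests.

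The 250 bases before the transcription start of 6 members are shown because their counts fell in different cells: Krt71 in sheath cells, Krt31, Krtap8-1 and Krtap3-1 in shaft cells, Krtap3-2 mostly in the epidermis and Krt32 in both shaft and epidermal cells. Krtap3-1 and Krtap3-2 are neighbours on chromosome 11. The sequences are from RefSeq, build GRCm38.p6, written 5′ to 3′ on the strand of the gene. Capitals mark matches, on either strand, to 3 motifs. The LEF1/TCF motif searched was CTTTGA, known from genes that respond to Wnt signals. The HOXC13 motif was TTTATNAA, TTTATNAG, TTTATNGA, TTTATNGG, TTAATNAA, TTAATNAG, TTAATNGA or TTAATNGG, where N is any base. The TATA box, at which transcription is commonly set up, was searched as TATAAA.
Krt71 (chr15:101743098-101743347, minus strand): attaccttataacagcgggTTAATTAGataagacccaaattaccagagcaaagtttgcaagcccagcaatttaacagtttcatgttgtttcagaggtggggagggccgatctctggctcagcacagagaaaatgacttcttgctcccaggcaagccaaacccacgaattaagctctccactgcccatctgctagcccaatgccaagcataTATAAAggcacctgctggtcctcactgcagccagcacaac
Krt31 (chr11:100050552-100050801, minus strand): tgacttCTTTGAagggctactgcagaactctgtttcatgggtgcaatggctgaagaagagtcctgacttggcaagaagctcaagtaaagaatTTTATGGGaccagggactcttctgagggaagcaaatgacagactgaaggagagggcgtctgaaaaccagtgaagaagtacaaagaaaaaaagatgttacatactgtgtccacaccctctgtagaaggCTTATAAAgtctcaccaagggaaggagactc
Krt32 (chr11:100088270-100088519, minus strand): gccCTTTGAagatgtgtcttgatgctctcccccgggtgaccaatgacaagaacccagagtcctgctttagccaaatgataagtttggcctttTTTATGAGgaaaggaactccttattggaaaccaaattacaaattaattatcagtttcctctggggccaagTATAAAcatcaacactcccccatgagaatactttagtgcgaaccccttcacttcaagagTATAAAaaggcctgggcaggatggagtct
Krtap8-1 (chr16:89487953-89488202, minus strand): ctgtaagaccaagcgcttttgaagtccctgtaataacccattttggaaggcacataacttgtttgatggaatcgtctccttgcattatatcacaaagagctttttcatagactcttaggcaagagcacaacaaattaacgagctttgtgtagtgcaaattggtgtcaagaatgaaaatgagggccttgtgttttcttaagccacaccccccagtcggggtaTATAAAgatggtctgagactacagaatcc
Krtap3-1 (chr11:99566631-99566880, minus strand): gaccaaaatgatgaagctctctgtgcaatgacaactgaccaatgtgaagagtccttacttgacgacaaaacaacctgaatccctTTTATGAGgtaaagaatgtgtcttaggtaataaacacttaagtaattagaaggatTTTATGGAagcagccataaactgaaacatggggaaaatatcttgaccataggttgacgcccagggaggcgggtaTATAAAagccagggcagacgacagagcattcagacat
Krtap3-2 (chr11:99556854-99557103, minus strand): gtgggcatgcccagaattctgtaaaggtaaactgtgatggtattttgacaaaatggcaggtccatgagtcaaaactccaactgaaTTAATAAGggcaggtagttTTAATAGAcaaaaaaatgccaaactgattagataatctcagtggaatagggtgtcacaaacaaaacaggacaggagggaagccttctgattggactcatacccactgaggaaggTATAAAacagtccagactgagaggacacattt
The TATAAA string, at any place and on either strand, was present in 33 of the 41 members that the promoter table held (80.5%). The share was 14.3% of 27025 genes over the same length. A HOXC13 motif was present in 27 of the 41 (65.9%) against 19.6%, and a LEF1/TCF motif in 14 (34.1%) against 15.8%. By role, the TATAAA string stood before 7 of 7 sheath keratins, 5 of 7 shaft keratins and 21 of 27 Krtap genes. In Krt72 and Krt84 its only match was the reverse complement inside a HOXC13 match, so these are not counted as TATA boxes near the start. The HOXC13 motif stood before 5 of 7, 6 of 7 and 16 of 27. In the sheath keratins Krt25, Krt26, Krt72 and Krt73, the only HOXC13 match includes a TATAAA string or its reverse complement. The same stretch was thus counted there for both motifs. The reverse complement of the TATA box overlaps the first bases of some HOXC13 strings, so the 2 shares are not independent, and a match is a description of letters, not of binding. The Krtap3-2 sequence, whose gene was counted mainly in the epidermis, held 1 TATA box and 2 HOXC13 motifs, as many of each as the Krtap3-1 sequence.

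After a filter on genes and mitochondrial share, 9078 control, 5451 UV and 6199 UV plus VD cells remained, with medians of 6822.5, 7566 and 9301 counts per cell. The UV library stood apart in its cells. Cell classes were named from marker genes, so keratinocyte here is short for keratinocyte-like, and so on. Keratinocytes made up 65.2% of its cells, against 93.3% in control and 93.1% in UV plus VD, and 2 of the 34 clusters held UV cells only: one of 323 cells with genes of the hair matrix, and one of 48 melanocyte-like cells. The labels give no reason for this, and whether the skin pieces or the dissociation differed cannot be told apart from the treatment. Libraries shared 37 to 66 cell barcodes in pairs, and 3 hair-cluster barcodes were shared with each of the other libraries. The doublet caller marked 0 cells in each library, so it has not worked here and doublets remain.

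All 52 members had counts in the UV library, 19 in control and 16 in UV plus VD. Summed over all members, control had 5658 counts (71.2 CPM, the count scaled to 1000000 counts in the library; interval 69.4 to 73.1), UV 45540 counts (899.8 CPM; 891.6 to 908.1) and UV plus VD 9048 counts (130.9 CPM; 128 to 134). Krtap3-2 alone gave 5019 of the control counts and 8674 of the UV plus VD counts. Without Krtap3-2, Krtap3-3 and Krt32, 3 genes set aside after their values were seen, the sums were 95, 40767 and 123 counts, or 1.20, 805.5 and 1.78 CPM.

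**Figure D1:**
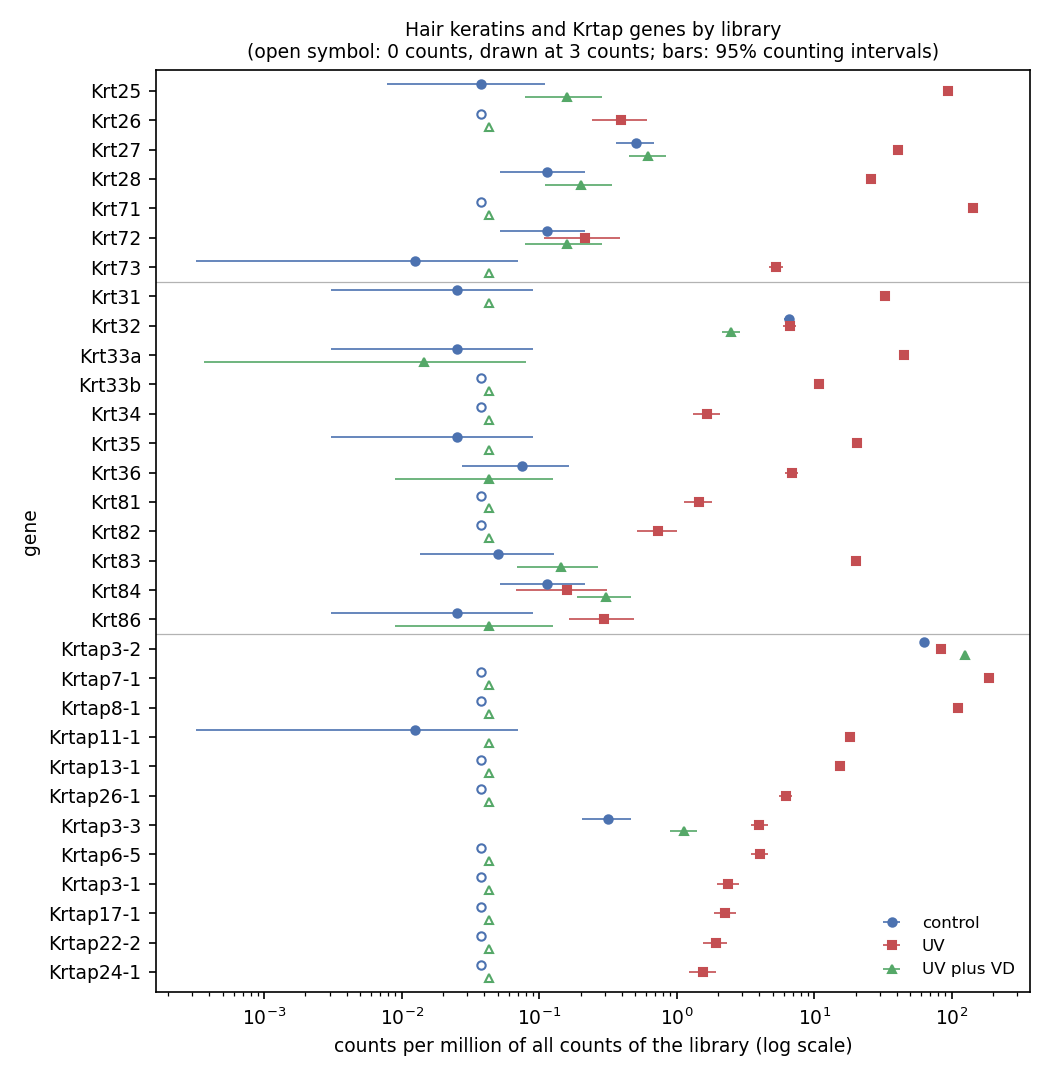
CPM (log axis) of the 19 keratins and the 12 Krtap genes with the most counts, by library; bars are exact 95% counting intervals of 1 library each, and an open symbol is a gene with 0 counts drawn at 3 counts. Most members are open or at the low end in control and UV plus VD and far above it in UV; Krtap3-2 (63.2, 83.7 and 125 CPM), Krt32, Krt72 and Krt84 do not have that pattern.

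Among the sheath keratins, Krt71 was counted 0 times in control, 7262 times in UV and 0 times in UV plus VD. With a library at 0 set at a floor of 3 counts, UV was at least 3800-fold above control. Krt25 had 3, 4788 and 11 counts, a UV to control ratio of 2505 (857 to 12150). These are the type II and type I keratins with which sheath cells build much of their filament, and each had nearly all of its counts in UV. Krt27 had 40, 2061 and 43 counts, a UV to control ratio of 80.9 (59.2 to 114), and Krt28 had 9, 1318 and 14 counts, a ratio of 229.9 (121 to 504). Both were also present at a low level in the other libraries. Krt73 had 1, 268 and 0 counts. Krt26 had 0, 20 and 0 counts. Krt72 was the exception, at 9, 11 and 11 counts, a UV to control ratio of 1.92 (0.723 to 5.24), an interval that holds both no difference and a 5-fold one.

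Among the type I shaft keratins, Krt33a had 2 counts in control, 2282 in UV and 1 in UV plus VD. Krt31 had 2, 1659 and 0 counts, a UV to control ratio of 1302 (359.9 to 10760). Krt35, an early keratin of the shaft precursor cells, had 2, 1041 and 0 counts. These 3 genes were at or under the floor of 3 counts in both other libraries. Krt33b (0, 546 and 0), Krt36 (6, 347 and 3) and Krt34 (0, 84 and 0) had the same order. Krt32, a keratin of the shaft cuticle, had 519, 335 and 173 counts, or 6.53, 6.62 and 2.50 CPM. UV and control differed by less than counting error for Krt32 (ratio 1.01, 0.881 to 1.17), while UV plus VD was 2.61-fold (2.19 to 3.12) below control.

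Among the type II shaft keratins, Krt83 had 4, 1012 and 10 counts, and Krt81 and Krt82 had 73 and 37 counts in UV and 0 in both other libraries. Krt86 had only 2, 15 and 3 counts. Krt84, known from the tongue rather than the hair shaft, had 9, 8 and 21 counts in 9, 8 and 17 cells, and 0 counts in the hair cluster. Its UV plus VD to control ratio was 2.68 (1.18 to 6.65). Transcripts of several shaft keratins share stretches of 50 bases with other genes, for 43.5% of such windows in Krt81, 43.3% in Krt86 and 33.1% in Krt34. The split of counts among Krt31, Krt33a, Krt33b, Krt34, Krt81, Krt83 and Krt86 is therefore uncertain.

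Of the 33 Krtap genes, 17 had at least 20 counts in UV and 27 had 0 counts in control. Krtap7-1 had 0, 9416 and 0 counts, so UV was at least 4927-fold above control. Krtap8-1 had 0, 5597 and 0 counts, a bound of 2929-fold. Krtap11-1 had 1, 921 and 0 counts. Krtap13-1 (783), Krtap26-1 (314), Krtap6-5 (203), Krtap3-1 (120), Krtap17-1 (114), Krtap22-2 (97) and Krtap24-1 (79) had counts in UV and 0 in both other libraries, as did Krtap16-3 (58), Krtap14 (53), Krtap19-3 (46), Krtap19-9b (29) and Krtap19-5 (20). The other 16 genes had 1 to 18 counts in UV and at most 2 in either other library. Krtap3-2 and Krtap3-3 stood apart: Krtap3-3 had 25, 202 and 78 counts and Krtap3-2 had 5019, 4236 and 8674. By the composition of their proteins, 15 of 32 Krtap genes had at least 20% cysteine and 10 had at least 35% glycine and tyrosine. The cysteine-rich group had 4715 counts in UV but 277 without Krtap3-2 and Krtap3-3, and the glycine- and tyrosine-rich group had 6086. The remaining 7, with Krtap7-1 among them, had 11567. Among the keratins, the shaft members other than Krt84 had 4.7% to 7.7% cysteine, Krt84 had 2.5% and the sheath members had 1.7% to 2.2%.

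For the comparison of UV with control, 31 of the 34 members with at least 20 counts over both libraries passed the 2-fold limit upward in UV and 0 passed it downward, beside 26.2% of 15461 genes higher and 1.82% lower. By role these were 6 of 7 sheath keratins, 9 of 10 shaft keratins and 16 of 17 Krtap genes. The median log2 ratio was 6.16 over the members and 0.18 over all genes. Most members reached 20 counts only through the UV library and so had to differ, and these counts therefore carry no weight as support. 4 members had at least 20 counts in control alone: Krt27 and Krtap3-3 were 80.9-fold and 12.7-fold (8.35 to 20.1) higher in UV, and Krtap3-2 was 1.33-fold (1.27 to 1.38) higher and Krt32 1.01-fold. For UV plus VD against UV, 32 of 35 members were at least 2-fold lower and 0 were higher, beside 26.9% of 15345 genes lower and 1.32% higher. The 3 that were not lower by 2-fold were Krt72, Krt84 and Krtap3-2. Only 5 of the 35 had at least 20 counts in UV plus VD alone. Most of the others reached 20 counts only through UV and so had to differ, so this count carries no weight as support either. The second comparison shares the UV library with the first, and the share of all genes that moved was large in both.

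For UV plus VD against control, neither of which held a hair cluster, 7 members had at least 20 counts. Krtap3-3 (3.59-fold, 2.26 to 5.87) and Krt84 were at least 2-fold higher in UV plus VD and Krt32 was lower, beside 4.26% of 14515 genes higher and 4.31% lower. Krtap3-2 was 1.99-fold (1.92 to 2.06) higher and fell just short of the 2-fold limit. Krt27 had a ratio of 1.24, Krt28 of 1.79 and Krt72 of 1.41. The sheath and shaft genes with high counts in UV were at 0 or near it in both of these libraries. In them Krt71 was found in 0 of 9078 and 0 of 6199 cells, which allows a share of cells with a count of up to 0.033% and 0.0484% (here and below, the limit set on a count of 0 is 3 cells of the total, while intervals of shares are exact binomial).

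When cells were clustered with all members left out of the variable genes, 84.2% of the UV member counts fell in the cluster of 323 UV cells: 92.6% for the sheath keratins, 89.3% for the shaft keratins and 76.6% for the Krtap genes. It was called hair-matrix-like because 4 of the 14 hair markers that are not members were detected in at least 25% of its cells: Msx2 (27.2%), Dlx3 (28.5%), S100a3 (28.5%) and Mt4 (29.1%). Mt4 was also found in 38.4% of the other UV cells and Dlx3 in 6.75%, while Hoxc13, a homeobox gene of the shaft, was found in 18.6% of the cluster and 0.644% of the others. Its leading genes other than members included S100a3, Gprc5d and Tchh but also the skeletal muscle genes Acta1, Myl1 and Tnnt3. Acta1 had 3311 counts in 10 of the 323 cells. Ptprc, the leukocyte marker, was found in 4 cells, Cd3e in 3, the myeloid gene Lyz2 in 43 and the fibroblast gene Col1a1 in 48. Of the 6 melanocyte markers, Dct, a pigment enzyme gene, was found in 153 cells (47.4%, 174.9 CPM), against 23.3% of the UV cells outside the hair and melanocyte clusters and all 48 melanocyte-like cells (22900 CPM). In the shaft cells defined below, Dct was found in 20 of 22. The other 5 markers (Tyrp1, Pmel, Mlana, Tyr and Mitf) were found in 1 to 13 of the 323 cells and in 0 of those 22. The part of these cells or of their RNA in the member counts was not tested.

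Outside that cluster the UV library held low counts of the same genes in many cell classes. Krt71 was found in 29.7% of hair-cluster cells (median 6047 counts per cell), 4.70% of keratinocytes (median 9650), 2.49% of fibroblasts (median 6586) and 3.57% of macrophages, monocytes and dendritic cells (median 4471). Thinned to 2500 counts per cell, the shares were 26.3%, 1.52%, 0.624% and 2.38%. Krtap7-1 was found in 12.4% of hair-cluster cells, 5.51% of keratinocytes and 3.12% of fibroblasts. Fibroblasts should lack these genes, so shares of this size are not taken here as expression by a cell class. The source of these counts was not tested. Of the 372 sheath keratin counts in the 1365 fibroblast, immune, endothelial and melanocyte cells, 72% lay in 4 cells with at least 10 counts each. Over all cells, any member was found in 10.9% of control, 30.1% of UV and 13.6% of UV plus VD cells, or 4.77%, 14.8% and 6.18% after thinning, with no cell left out as too shallow.

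The sheath and the shaft genes were found in different cells of the cluster. At 0.5% of a cell's counts, 57 cells held sheath keratins alone, 22 held shaft keratins or Krtap genes alone, 0 held both and 244 held neither. A count of 0 in 323 cells allows a share of up to 0.929%. Of the 22, 17 passed the limit for both shaft keratins and Krtap genes, 3 for shaft keratins alone and 2 for Krtap genes alone. The limit cuts a range: 57 cells lay between 0.25% and 1% for the sheath keratins, 17 for the shaft keratins and 7 for the Krtap genes. At a limit of 0.1%, 166 cells were on the sheath side, 41 on the shaft side and 5 on both. Outside the cluster, at 0.5%, 4 other UV cells held sheath keratins, and 17 UV, 22 control and 40 UV plus VD cells held shaft-side genes. In all but 2 of these UV cells and in every one of the control and UV plus VD cells, Krtap genes alone passed the limit, and again 0 cells held both. Krtap3-2, counted mainly in the epidermis (below), gave 5019 of the 5050 Krtap counts in control and 8674 of the 8758 in UV plus VD.

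**Figure D2:**
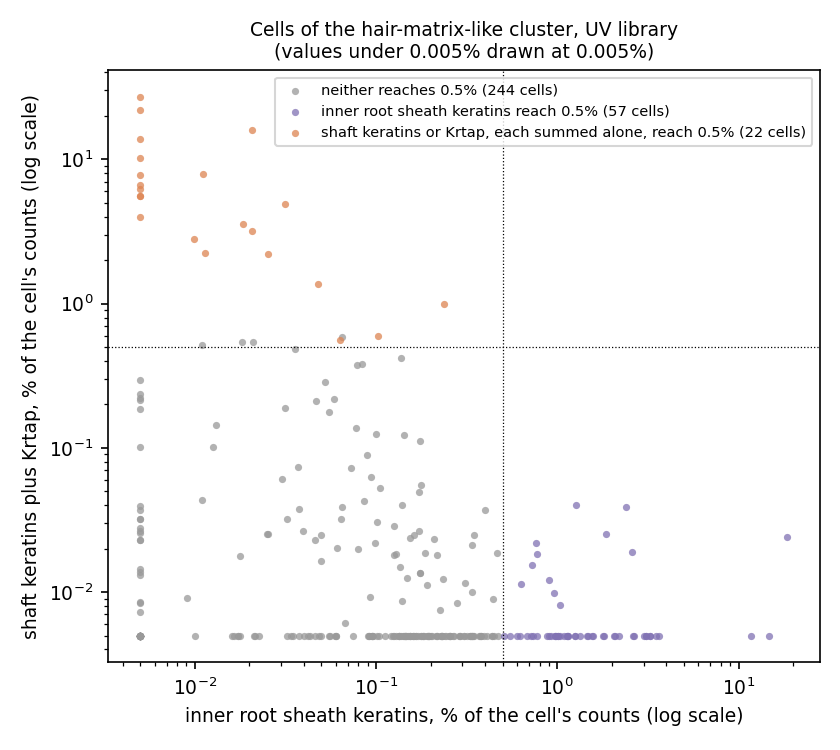
Each point is 1 of the 323 cells of the UV hair-matrix-like cluster, placed by the share of its counts from sheath keratins (x axis) and from shaft keratins plus Krtap genes (y axis), both in percent on log axes, with values under 0.005% drawn there. The 57 sheath cells reach 18.6% on the x axis and stay low on the y axis, and the 22 shaft cells do the reverse; a cell is coloured when sheath keratins, shaft keratins or Krtap genes, each summed alone, reach 0.5%.

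In the 57 sheath cells, sheath keratins took a median of 1.15% of the counts (0.511% to 18.6%), and all 57 together held 2 shaft keratin counts and 17 Krtap counts. In the 22 shaft cells, shaft keratins took a median of 1.19% (0.123% to 8.7%) and Krtap genes of 3.99% (0 to 21.4%), with 39 sheath keratin counts in all. Counts were concentrated in few cells: 4 cells held 45.9% of the UV sheath keratin counts, 64.5% of the shaft keratin counts and 55.4% of the Krtap counts. As a description over the 323 cells, which share 1 library and differ in depth, the correlation of log values between sheath keratins and shaft genes was -0.329. Over the 5451 UV cells it was 0.0823. Pairs were formed from the 17 members found in at least 10 hair cells. The 15 pairs within the sheath had a median correlation of 0.435 (range -0.069 to 0.685). The 55 pairs on the shaft side had 0.556 (range -0.053 to 0.918) and the 66 pairs across -0.091 (range -0.297 to 0.107). Krt26 had only -0.0694 to 0.0396 with the other sheath keratins. Krtap3-2 had -0.0534 to 0.15 with the shaft-side members other than Krtap3-3 (0.323).

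Within the sheath group, Krt28 was found in 57, Krt25 in 56, Krt71 in 53, Krt27 in 50 and Krt73 in 25 of the 57 cells. Each cell held a median of 4 of the 7 keratins at 3 or more counts. Of the hair-cluster cells with at least 10 counts, 39 had both Krt25 (85 cells) and Krt71 (57 cells), and 14 of the 18 with Krt27 also had Krt71. The 3 cells with the highest sums held 1309, 1234 and 1308 counts of Krt71 and 707, 282 and 696 of Krt25. 1 cell had another mix: 53 counts of Krt28, 35 of Krt73, 6 of Krt72, 2 of Krt71 and 0 of Krt25. Krt72 and Krt73 are keratins of the sheath cuticle. In 4 more cells Krt71 was at 0, and 3 of these held 5, 7 and 9 counts of Krt73 together with Krt25, Krt27 and Krt28. Krt73 was not confined to cells without Krt71. Other sheath cells held 28, 21 and 11 counts of Krt73 with 137, 80 and 80 of Krt71. Krt72 had 11 counts in the whole library. In the 244 cells below both limits, Krt25 was found in 142, Krt28 in 125 and Krt71 in 42, and Krt26 in 11, so Krt25 and Krt28 were found in more of these cells than Krt71 and Krt26 in fewer, at a median depth of 5647 counts against 6499 in the sheath cells.

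Within the shaft group, the cells fell into several patterns of members. 4 cells held 125 to 588 counts of Krt31, 245 to 743 of Krt33a and 1052 to 2867 of Krtap7-1, with 0 counts of Krt35 in each. All 10 hair cells with at least 10 counts of Krt31 had as many of Krtap7-1, and all 5 with as many of Krt83 had Krt31 too. Over the cluster, Krt83 and Krtap11-1 correlated at 0.918 and Krtap7-1 and Krtap8-1 at 0.904. Of the 10 Krt31 cells, 3 were among the 24 of the 323 cells with at least 10 counts of Krt35. Over the cluster, Krt31 and Krt35 correlated at 0.302. The 2 cells at the end of the group held 29 and 50 counts of Krt35 and 0 of Krtap7-1 and Krtap8-1, and Krt36 had up to 55 counts in cells with Krt35.

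A different pair of cells carried Krt32 and Krt82, both keratins of the shaft cuticle. Krt32 had 135 and 101 counts there, Krt82 16 and 20, Krtap17-1 53 and 42, Krtap24-1 42 and 33, and Krtap26-1 155 and 143. Both cells had 0 counts of Krtap7-1. 1 other cell held Krtap19-3 (44 counts), Krtap19-9b (29), Krtap19-5 (20), Krtap19-2 (15), Krtap22-2 (45) and Krtap3-1 (75), with 0 counts of Krt31 and Krt33a. All library counts of Krtap19-2, Krtap19-5 and Krtap19-9b in UV came from that cell. These patterns rest on 1 to 4 cells each.

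**Figure D3:**
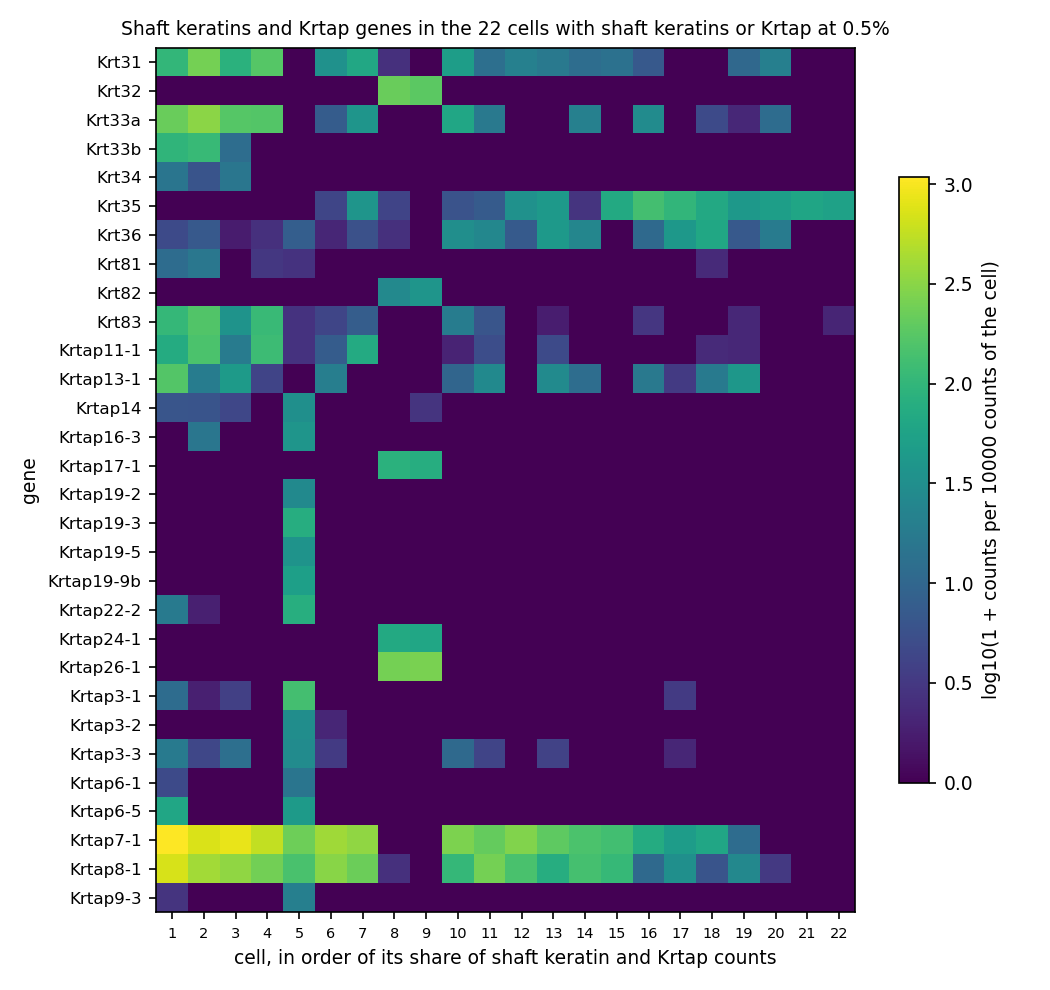
Counts of shaft keratins and Krtap genes (y axis, one gene per line) in each of the 22 shaft cells (x axis, in order of their share of these counts), on a log colour scale. Krt31, Krt33a and Krtap7-1 share the 4 leftmost cells, Krt32, Krt82 and Krtap26-1 share 2 cells without Krtap7-1, and Krt35 lies mainly in cells to the right.

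Of the 40 hair lineage genes listed, 38 were found in sheath or shaft cells: 18 in at least a 2-fold larger share of the shaft cells, 11 in at least a 2-fold larger share of the sheath cells and 9 within 2-fold. Among the last were Msx2 (42.1% of sheath and 59.1% of shaft cells), Dlx3 (45.6% and 40.9%), Trps1 (24.6% and 45.5%) and Padi3 (22.8% and 18.2%). The named examples that follow are ones that differed. Tchh, which encodes the trichohyalin of sheath granules, was found in 28 of 57 sheath cells, 1 of 22 shaft cells and 18 of the 244 other cells. Hoxc13 was found in 0, 16 and 44, and Gprc5d, an orphan receptor of hard keratin tissues, in 0, 16 and 6. The cadherin gene Dsg4 was found in 0, 17 and 5 cells and Hephl1, a ferroxidase gene, in 0, 17 and 1. S100a3, a calcium-binding protein of the hair cuticle, was found in 9, 21 and 62 and Mt4, a metallothionein, in 6, 20 and 68. All 6 genes from Hoxc13 to Mt4 were thus found in a larger share of the shaft cells than of the sheath cells, and Tchh in a smaller one. The zeros in 57 cells allow a share of up to 5.26%. Cux1, a homeobox gene of the sheath, was found in 49, 9 and 154 cells and Gata3, another sheath regulator, in 12, 1 and 60. Gata3 was not particular to the hair cluster: it was found in 22.6% of its cells and 43.8% of the other UV cells. In control and UV plus VD it was found in 68.4% and 68.6% of cells. The division genes Mki67 and Top2a were found in 20 and 13 sheath cells, 0 and 0 shaft cells (up to 13.6%) and 124 and 123 of the others, although the shaft cells were the deepest with a median of 8875.5 counts.

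Over the whole libraries, 16 of 37 hair lineage genes with enough counts were at least 2-fold higher in UV than in control and 3 were lower, beside the 26.2% and 1.82% of all genes. In UV plus VD against UV, 0 were higher and 19 lower, beside 1.32% and 26.9%. Several of these genes reached 20 counts only through UV, so these counts of genes carry no weight as support. Examples are Hoxc13 and Lef1 in the first comparison, and Lef1 and Gprc5d in the second. Hoxc13 had 11 counts in control and 146 in UV, 20.8-fold higher (11.3 to 42.7), and Lef1, the nuclear partner of Wnt signals in the matrix, had 9 and 106, 18.5-fold higher (9.38 to 41.5). Tchh had 51 and 1936 counts, 59.6-fold higher (45.1 to 80.3). Mki67 and Top2a were 8.05-fold (6.86 to 9.50) and 6.12-fold (5.42 to 6.92) higher. Most of their UV counts lay outside the hair cluster, 535 of 923 for Mki67 and 822 of 1290 for Top2a. Foxn1, a regulator of shaft and epidermal differentiation, had 894 and 269 counts and was 2.12-fold (1.84 to 2.44) lower. The others lower in UV were the desmosomal cadherin gene Dsc2 and the basal keratin gene Krt15. Over the 5451 UV cells, the non-member genes whose log values were most correlated with the summed sheath keratins were Lrat (0.502), which esterifies retinol, Slc39a10 (0.501), a zinc transporter, Slc16a7 (0.462), Rassf6 (0.371), Hist1h1b (0.369), Lurap1l (0.362), 1110038B12Rik (0.358) and Cux1 (0.357). With the summed shaft keratins and Krtap genes, they were AC103674.4 (0.557), S100a3 (0.515), Gprc5d (0.475), Ly6g6d (0.461), Stra6 (0.367), a retinol receptor, Kctd4 (0.342), Krt87 (0.335), a further hair keratin, and Lce1h (0.333). Lrat had counts in 30 sheath cells and 0 shaft cells, and Stra6 in 2 and 15. Lrat had 0 counts in control and in UV plus VD, and so did AC103674.4 and Gprc5d. Kctd4 and Lce1h also correlated with Krtap3-2 alone, at 0.601 and 0.583. Without Krtap3-2 and Krtap3-3, a choice made after seeing the data, their places went to Bambi (0.372), a decoy receptor of BMP signals, and Hoxc13 (0.345).

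Krtap3-2 was counted in another place. A cluster rich in Lce1 genes, which encode proteins of the cornified envelope, held 69 control, 61 UV and 142 UV plus VD cells, and in them lay 78.0%, 80.3% and 86.4% of each library's Krtap3-2 counts. In that cluster, 60 of the control cells (87.0%), 46 of the UV cells (75.4%) and 124 of the UV plus VD cells (87.3%) had a count. Thinned, the shares were 85.5%, 60.7% and 76.1%. Fibroblasts had a count in 2.34%, 3.33% and 2.88% of cells at medians of 4819, 6586 and 5210.5 counts. The shares in the Lce1-rich cluster were well above these. The hair cluster held 35 counts. Within the cluster, Krtap3-2 stood at 4077, 3489 and 3697 CPM, and UV plus VD was 0.907-fold (0.872 to 0.943) of control, while over the whole libraries it was 1.99-fold. The cluster made up 0.76% of control, 1.12% of UV and 2.29% of UV plus VD cells. 1 UV cell held 615 counts, and without the top cell of each library the cluster stood at 3826, 2858 and 3518 CPM.

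Krtap3-3 had few counts there, 8, 6 and 29. Another epidermal cluster, led by Btc and with Lor among its leading genes, held 7, 50 and 38 of them, and 105 of the 202 in UV were in the 22 shaft cells. Krtap3-3 shares 41.3% of its 50-base windows with Krtap3-2, and 28.9% of those of Krtap3-2 are in Krtap3-3, so the split of counts between them is uncertain. Krtap3-1, which shares 8.8%, was found in UV alone, with 112 of its 120 counts in the shaft cells. Only 5 of the 22 shaft cells had a count of Krtap3-1, and 1 of them held 75 counts and another 29. Krtap3-1 counts thus lay mainly in shaft cells and Krtap3-2 counts in the epidermis, and the place of Krtap3-3 is as uncertain as that split.

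Krt32 was counted in keratinocytes of every library: 487 counts in control, 93 in UV and 169 in UV plus VD, or 6.45, 2.43 and 2.55 CPM of that class. It was found in 4.53%, 2.14% and 2.29% of keratinocytes at medians of 6956, 9650 and 9718 counts, and in 0 of 214, 1 of 481 and 1 of 208 fibroblasts. It was also found in 7 of 130, 1 of 172 and 2 of 59 T and NK cells (5.38%, 0.581% and 3.39%), so the share in control and UV plus VD was not larger in keratinocytes than in that class, which should lack the gene. Thinned, the shares were 1.78%, 0.759% and 0.901% of keratinocytes and 0%, 0% and 1.69% of T and NK cells. Keratinocytes of UV were 2.65-fold (2.12 to 3.35) below those of control, and UV plus VD and UV differed by less than counting error (1.05, 0.810 to 1.37). The similar whole-library CPM of control and UV thus summed, in UV, a lower level in keratinocytes and 238 counts in 4 cells of the hair cluster. Outside that cluster Krt32 was at 2.01 CPM in UV. A basal cluster had 20.6, 13.9 and 19.5 CPM, and another keratinocyte cluster 9.41, 5.93 and 5.16. Within them UV and control differed by less than counting error, with UV to control ratios of 0.673 (0.386 to 1.11) and 0.631 (0.248 to 1.34). The UV values rest on 18 and 7 counts, and both intervals also hold a fall of more than 2-fold. The UV plus VD to control ratios were 0.946 (0.674 to 1.31) and 0.548 (0.328 to 0.874). The 2 clusters made up 12% and 25% of control cells, but 4.71% and 3.17% of UV cells. Among Langerhans-like cells, Krt32 was found in 11 of 57 in control (19.3%, 21 counts), 0 of 42 in UV and 0 of 22 in UV plus VD, which allow up to 7.14% and 13.6%. Krt32 lies over Gm11571 on the other strand and the sources do not say whether the counting used strand. In all, 5 of the 52 members overlap another gene: Krt32, Krtap10-10, Krtap12-1, Krtap14 and Krtap24-1.

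In control and UV plus VD, 35 of 40 and 41 of 43 counts of Krt27 were in keratinocytes, which made up 93.3% and 93.1% of the cells, so its level in that class (0.464 and 0.619 CPM) was near that of the whole library. Of its 40 control counts, 15 were in 4 cells of the cluster led by Btc and 14 in 6 cells of another keratinocyte cluster. Outside the hair cluster, Krt27 had 146 counts in UV, 5.99-fold (4.20 to 8.73) above control. Krt25 had 345 there against 3 in control, a ratio of 189 (64.1 to 920.1). Low counts of this kind were not taken above as expression by a cell class, and their source was not tested. Of the Krt25 counts, 2 cells held 76.5% of the 132 in fibroblast, immune, endothelial and melanocyte cells, and 4 cells held 49.8% of the 213 in keratinocytes and sebocytes. Without the hair cluster, 15 of 17 members with enough counts were at least 2-fold higher in UV than in control and 1, Krt32, was lower, against 31 of 34 and 0 with it, beside 24.2% of 15269 genes higher and 2.06% lower. Most of the 15 reached 20 counts through UV and so had to differ.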

How the data were processed

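Single-cell RNA-seq of whole mouse skin was deposited as 3 tables of counts per gene and cell barcode, 1 library per group, each listing only genes with at least 1 count; a gene missing from a table was taken as 0 there. The authors processed the reads with FastQC, fastp, STAR and featureCounts, per the submitters' processing notes, which name the build GRCh38 although the deposited gene symbols are those of mouse; no gene coordinates were taken from it. The sources used here do not say if the deposited counts are of molecules or of reads. The libraries held 79450666 (control), 50610389 (UV) and 69126823 (UV plus VD) counts after filtering.

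Barcodes with at least 200 genes and at most 20% mitochondrial counts were kept. Cells were scaled to 10000 counts, log transformed and clustered together (scanpy 1.11.5, 2000 variable genes without the members, 30 principal components, 15 neighbours, Leiden resolution 1). Clusters were named from markers detected in at least 25% of cells, with at least 3 needed. Ratios of CPM between libraries carry exact conditional intervals, CPM exact Poisson intervals and shares exact binomial intervals (Clopper-Pearson), all at 95% and for counting error only. A count of 0 was given an upper limit of 3 counts or cells of the total instead. A gene counted as higher or lower at 2-fold among genes with at least 20 counts over both libraries. The ratio and call steps were tested on simulated counts. Protein composition was computed from the coding sequences of a mouse annotation and shared 50-base windows from its whole transcripts. Upstream sequences came from the RefSeq promoter table.

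Members and gene lists were chosen with earlier results of these data known. Named with values were the keratins, the 12 Krtap genes with most counts, members with at least 3 counts in control or UV plus VD, hair lineage genes by role and the 8 genes outside the member list most correlated with each sum among those in at least 30 UV cells. Other genes named were chosen after their values were seen. Alternatives varied the denominator, filters, fold, cells, clustering and limits.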

Additional observations from a re-analysis of the deposited data

How the results depend on the processing

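No paired analysis was possible because each group has 1 library. Over 116 alternatives to 23 results, 73 changed nothing beyond the stated limits and 43 moved a value; unless a value shows it, the cause was not tested. With at least 100 counts required, fewer genes were tested, and the members higher in UV than in control went from 31 to 20, those lower in UV plus VD than in UV from 32 to 21, and those higher in UV plus VD than in control from 2 to 1. Without a filter, the members higher in UV plus VD numbered 6 against UV and 7 against control, and those lower than control 2. At 1.5-fold, 1 member was higher in UV plus VD than in UV and 4 were higher than in control; at 4-fold, 0 were higher and 0 lower than in control. With each cell weighted the same, 4 were higher and 0 lower. Without the hair cluster, an alternative chosen after seeing the data, 15 members were higher and 1 lower in UV than in control, 14 were lower in UV plus VD than in UV, and 1 hair lineage gene was higher there. Hair lineage genes lower in UV than in control numbered 5 at 1.5-fold and 0 at 4-fold, and 2 were higher in UV plus VD than in UV at 1.5-fold. The share of cells with a member count was 10.9%, 30.1% and 13.6% (control, UV, UV plus VD) unthinned, 2.62%, 9.47% and 3.73% thinned to 1000 counts, and 0.76%, 5.36% and 1.82% for at least 3 member counts. The hair cluster's share of UV counts with members kept in the clustering was 86.3% for all members, 94.6% for sheath keratins, 93.2% for shaft keratins and 78.2% for Krtap genes; after the top 5% of each library by Scrublet score was left out it was 85.2%, 94.0%, 90.5% and 77.4%. At resolution 2 it was 78.1% for all members and 75.6% for sheath keratins, in a cluster of 163 cells. Cells with sheath keratins alone numbered 166 at a limit of 0.1%, 37 at 1% and 17 at 2%; at 0.1%, 41 held shaft genes alone and 5 held both. Depth limits the members near 0: a count of 0 in control allows up to 0.033% of cells (3 cells of the total).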
